A study of Mus musculus with 12 samples.

Results

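The genes described here encode the LKB1 kinase complex, a second kinase upstream of AMPK, and kinases related to AMPK, 10 genes in all of 22180 measured by name: Stk11, Strada, Cab39, Camkk2, Sik1, Sik2, Sik3, Nuak1, Nuak2 and Mark2. They were taken by gene symbol from the platform annotation, each has 1 probe set with that symbol alone, and all 10 passed the filter on dim genes, which left 17749 genes to test. The arrays measured acute myeloid leukemias of C57BL/6J mice. The leukemias were made with the MLL-AF9 fusion oncogene in donor bone marrow progenitor and stem cells that were either AMPKfl/fl, the floxed wild type (WT), or AMPKΔ/Δ, the AMPK-deficient knockout (KO). Recipients were irradiated with 10 Gy, given 50000 of these cells, and sampled when each became leukemic. From bone marrow, 5000 cells per sample were sorted either as all GFP-positive cells (whole leukemia) or as L-GMP, the leukemic granulocyte-macrophage progenitors, which were also lineage-negative and positive for c-Kit, CD16/32 and CD34. There were 3 arrays in each of the 4 groups: WT whole leukemia, KO whole leukemia, WT L-GMP and KO L-GMP. The labels give no animal age, do not name the Cre driver or the deleted subunit gene, and do not say whether replicates came from separate animals, and p-values therefore reflect sample-to-sample spread that may be partly technical.

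LKB1, encoded by Stk11, is a tumor suppressor kinase that works in a complex with the pseudokinase STRAD alpha (Strada) and the scaffold protein MO25 alpha (Cab39). It activates AMPK and a family of related kinases by phosphorylating a threonine in their activation loop, while CaMKK2 (Camkk2) activates AMPK in response to calcium. Among the related kinases, the salt-inducible kinases (Sik1, Sik2, Sik3) phosphorylate CRTC coactivators and class IIa histone deacetylases and keep them in the cytoplasm, NUAK kinases (Nuak1, Nuak2) regulate myosin phosphatase and cell adhesion, and MARK2 (Mark2) phosphorylates microtubule-associated proteins. In leukemia with MLL rearrangements, LKB1 and SIK3 are known to restrain HDAC4 and so to maintain the transcription factor MEF2C. Arrays measure RNA levels and not the activity of these kinases.

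Of the AMPK catalytic subunit genes, Prkaa1 (alpha 1) lay between 6.83 and 7.45 log2 units on the 6 KO arrays and between 7.72 and 8.69 on the 6 WT arrays, so every KO array was below every WT array. Prkaa2 (alpha 2) lay between 4.82 and 4.92 in the KO and between 4.66 and 5.05 in the WT, close to the filter for dim genes at 4.72. On the first principal component KO whole leukemia array 2 stood at 67.4, against -24.2 to 18.5 on the other 11 arrays. On the second, KO L-GMP array 2 stood at -41.3, against -19.6 to 21.8. Of the gate genes, Cd34 was higher in all 6 L-GMP arrays than in all 6 whole leukemia arrays. It did not pass limma (adjusted p = 0.145 over the mean of both genotypes), and the Fcgr3 and Fcgr2b arrays of both populations overlapped. Between genotypes, Cd34 was lower on every KO than on every WT whole leukemia array, with a difference of -2.32 (SE 0.37, limma adjusted p = 0.478).

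None of the 10 kinase-pathway genes passed limma's test in any of 7 comparisons. Of these, 3 set knockout against wild type (in L-GMP, in whole leukemia and averaged over both), 3 set L-GMP against whole leukemia (in the WT, in the KO and averaged over both), and the last was the genotype-by-population interaction. The lowest adjusted p among the 10 was 0.451, for Strada in the genotype comparison averaged over both populations. The test is limma's moderated test with Benjamini-Hochberg adjustment over all 17749 genes, called at an adjusted p under 0.05. It called 0.00563% of all genes in the L-GMP genotype comparison, 0% in whole leukemia and 0.0338% averaged over both (0.0282% lower), and 0% in the remaining 4 comparisons. At an unadjusted p under 0.05 by limma, the members numbered 0 of 10 for genotype in L-GMP, 2 in whole leukemia and 1 averaged over both, where the shares of all genes were 4.13%, 5.97% and 7.72%. For L-GMP against whole leukemia they numbered 1 in the WT, 0 in the KO and 1 averaged over both, against 2.5%, 7.39% and 7.52% of all genes, and for the interaction 0 against 2.06%. Counts of 0 to 2 among 10 genes show neither an excess over these shares nor agreement with them.

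**Figure D1:**
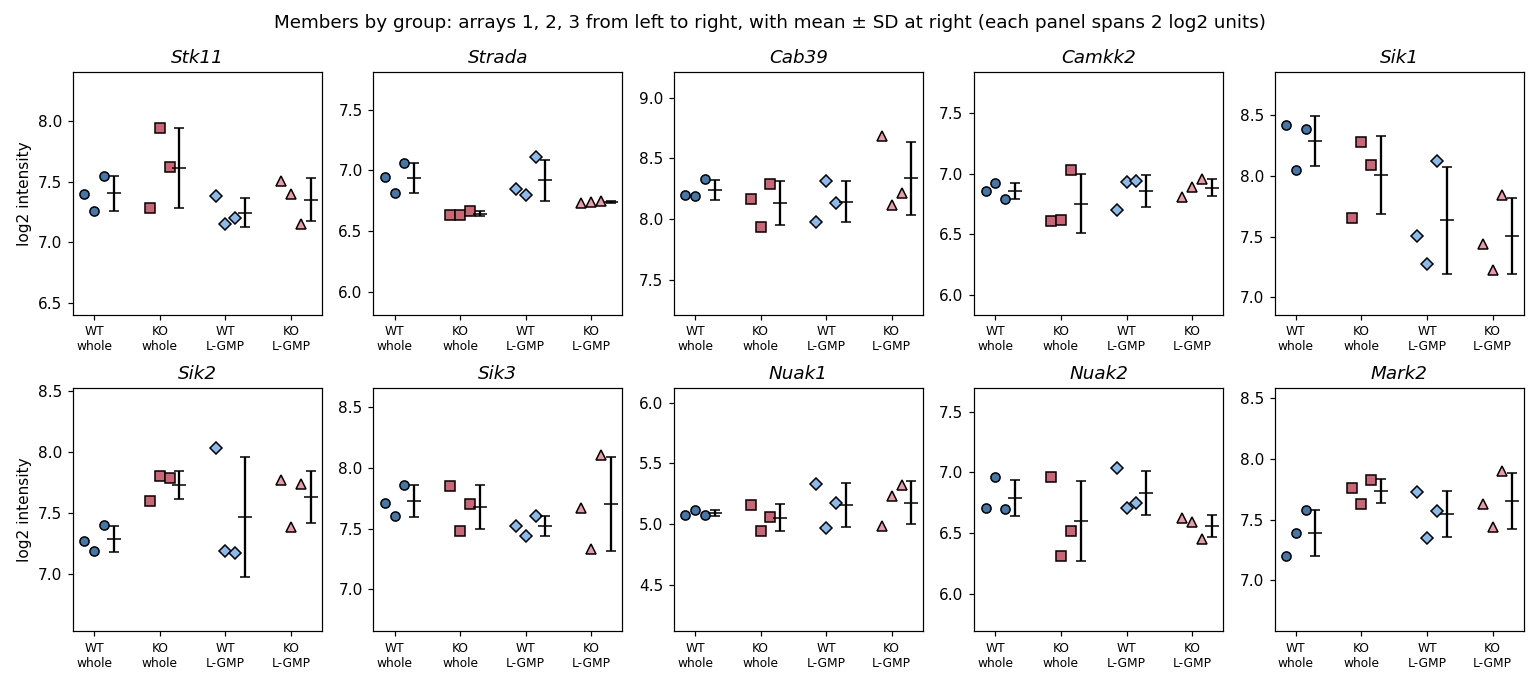
Log2 intensity (vertical axis, each panel spanning 2 log2 units around the mean of the gene) of the 10 genes on each array, by group, with arrays 1, 2 and 3 from left to right and the group mean ± SD (n = 3) as a bar. Strada is lower on every KO array than on every WT array, and Sik1 has its lowest values in L-GMP.

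Strada, encoding the pseudokinase that holds LKB1 in its active form (probe set 17270740), had the clearest separation by genotype of the 10 genes. Its log2 intensity was 6.94, 6.82 and 7.06 on WT whole leukemia arrays 1 to 3, and 6.63, 6.63 and 6.67 on the KO whole leukemia arrays. In L-GMP it was 6.85, 6.79 and 7.11 in the WT and 6.73, 6.74 and 6.75 in the KO. All 6 KO arrays, at 6.63 to 6.75, lay below all 6 WT arrays, at 6.79 to 7.11. Of all genes tested, 0.654% separated the 6 KO from the 6 WT arrays, and 0.372% of all genes tested did so with lower KO values. The difference was -0.30 (SE 0.10, 95% interval -0.52 to -0.08) in whole leukemia and -0.18 (SE 0.10, 95% interval -0.40 to 0.04) in L-GMP. Averaged over both populations it was -0.24 (SE 0.07, 0.848-fold with a 95% interval of 0.761 to 0.945), and it did not pass (limma, unadjusted p = 0.00683, adjusted p = 0.451). The KO values were also close together, with an SD of 0.02 in whole leukemia and 0.01 in L-GMP against 0.12 and 0.17 in the WT (n = 3 each). The interaction was 0.12 (SE 0.14, limma adjusted p = 1.0).

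The promoters of Strada, Sik2 and Mark2 are shown because these 3 genes were the ones whose KO and WT arrays did not overlap in whole leukemia. Each sequence ends at the base before the outermost gene start in RefSeq (GRCm38.p6, minus strand, 5′ to 3′), and capitals mark GGGCGG or its reverse complement, the core of a GC box. They are chr11:106193635-106193853 for Strada, chr9:51009133-51009323 for Sik2 and chr19:7341861-7342110 for Mark2.
Strada: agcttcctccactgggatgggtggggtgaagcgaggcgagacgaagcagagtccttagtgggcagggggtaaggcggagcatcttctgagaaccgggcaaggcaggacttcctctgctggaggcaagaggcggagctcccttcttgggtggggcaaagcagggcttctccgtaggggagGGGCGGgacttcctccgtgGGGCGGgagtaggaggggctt
Sik2: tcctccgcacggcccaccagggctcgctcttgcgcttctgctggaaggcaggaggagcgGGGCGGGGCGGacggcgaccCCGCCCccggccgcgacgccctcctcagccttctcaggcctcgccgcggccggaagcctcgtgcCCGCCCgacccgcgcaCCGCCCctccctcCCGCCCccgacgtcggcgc
Mark2: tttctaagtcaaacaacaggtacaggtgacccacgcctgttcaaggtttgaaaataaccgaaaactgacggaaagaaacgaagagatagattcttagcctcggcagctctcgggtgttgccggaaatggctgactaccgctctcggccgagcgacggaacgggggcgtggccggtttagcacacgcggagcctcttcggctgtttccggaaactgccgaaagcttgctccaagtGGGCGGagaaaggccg
The GC box letters occur 2 times in the Strada stretch, 6 times in Sik2 with overlapping matches counted, and 1 time in Mark2. In RefSeq windows of 250 bases before to 50 after a start, 35.7% of 32851 promoters held GGGCGG on either strand. Promoters were found for 8 of the 10 genes, and of these 7 held it, all but Sik3. The windows of the 8 genes held 56.0% to 80.0% G and C, against a median of 52.7% over all promoters. The full cAMP response element TGACGTCA, searched on both strands, was in none of the 8 genes' windows and in 1.79% of all windows. Its shorter form TGACG was in those of Stk11, Cab39, Sik2, Sik3 and Mark2 and in 20.8% of all. These are matches of letters only.

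Stk11, encoding LKB1 itself (probe set 17235180), measured 7.40, 7.26 and 7.55 log2 units in WT whole leukemia and 7.28, 7.94 and 7.62 in KO whole leukemia. In L-GMP it measured 7.38, 7.15 and 7.20 in the WT and 7.50, 7.40 and 7.15 in the KO. The groups overlapped throughout, and the highest value was that of KO whole leukemia array 2. The genotype difference was 0.21 (SE 0.16, 95% interval -0.15 to 0.58) in whole leukemia, and it was 0.05 without KO whole leukemia array 2 and 0.38 without array 1. In L-GMP it was 0.11 (SE 0.16, 95% interval -0.26 to 0.47; limma adjusted p = 0.878 and 1.0).

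Cab39, encoding the MO25 alpha scaffold (probe set 17214983), ranged from 7.93 to 8.68 log2 units, the lowest value being KO whole leukemia array 2 and the highest KO L-GMP array 1. Its group means were 8.24 ± 0.08 (SD, n = 3) in WT whole leukemia, 8.13 ± 0.18 in KO whole leukemia, 8.14 ± 0.17 in WT L-GMP and 8.34 ± 0.30 in KO L-GMP, and no neighbouring means differed by more than the larger SD. The L-GMP genotype difference of 0.19 (SE 0.16) was 0.02 without KO L-GMP array 1. Camkk2, the calcium-responsive AMPK kinase (probe set 17452456), ranged from 6.61 to 7.03. Its genotype difference was 0.03 (SE 0.12, 95% interval -0.25 to 0.30) in L-GMP and -0.10 (SE 0.12, 95% interval -0.38 to 0.17) in whole leukemia. KO whole leukemia held both its extremes, at 6.61, 6.62 and 7.03 on arrays 1 to 3.

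**Figure D2:**
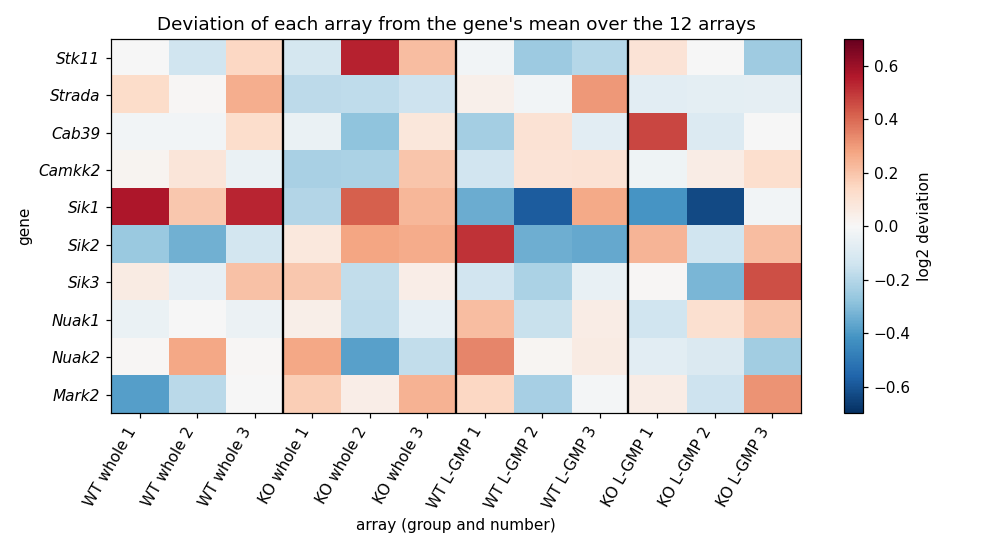
Deviation of each of the 12 arrays from the mean of each gene over all arrays (color, log2 units; columns are arrays by group and number, rows are the 10 genes). Sik1 deviates most, positive on all WT whole leukemia arrays, and KO whole leukemia array 2 holds the highest Stk11 value and the lowest Cab39, Nuak1 and Nuak2 values.

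Among the salt-inducible kinases, Sik1 (probe set 17343263), which is known to be induced by cAMP signaling, had the widest range of group means, and it was lower in L-GMP than in whole leukemia in both genotypes without passing the test. It measured 8.42, 8.05 and 8.39 log2 units in WT whole leukemia and 7.65, 8.27 and 8.09 in KO whole leukemia. In WT L-GMP it measured 7.51, 7.27 and 8.12, and in KO L-GMP 7.44, 7.22 and 7.84. The populations overlapped in both genotypes, since WT L-GMP array 3 lay above WT whole leukemia array 2, and KO L-GMP array 3 above KO whole leukemia array 1. Between WT arrays of equal number, which deviated together over all genes, Sik1 was lower in L-GMP in all 3 pairs. The difference of L-GMP from whole leukemia was -0.65 (SE 0.25, 95% interval -1.20 to -0.11) in the WT and -0.50 (SE 0.25, 95% interval -1.05 to 0.04) in the KO. In the KO it was -0.23 without both KO arrays numbered 2. Averaged over genotypes it was -0.58 (SE 0.17, 0.67-fold with a 95% interval of 0.513 to 0.874; limma unadjusted p = 0.00721, adjusted p = 0.655). The genotype differences of Sik1 were -0.13 (SE 0.25) in L-GMP and -0.28 (SE 0.25) in whole leukemia.

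Beside the Sik1 difference, all 8 neutrophil markers had lower values in L-GMP, by 1.45 to 3.07 log2 units averaged over genotypes, with 0 of 8 called by limma. The mean level of these markers spanned 7.55 to 10.16 on the WT whole leukemia arrays, 9.06 to 11.67 in KO whole leukemia, 6.06 to 8.75 in WT L-GMP and 7.19 to 8.10 in KO L-GMP, and their part in the result was not tested. Of 8 monocyte markers, 7 had lower values in L-GMP in the WT (median -0.67) and 4 in the KO (median 0.04), with 0 called, and their part was not tested either. In sorted populations such as these, fewer cells of a type and less RNA per cell cannot be told apart.

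Sik2 (probe set 17526937) was higher on every KO than on every WT whole leukemia array, at 7.60, 7.80 and 7.79 against 7.27, 7.19 and 7.40. In L-GMP it measured 7.77, 7.39 and 7.74 in the KO and 8.03, 7.19 and 7.17 in the WT, where array 1 held the highest value of all. The difference was 0.45 (SE 0.21, 95% interval -0.02 to 0.91; limma adjusted p = 0.829) in whole leukemia and 0.17 (SE 0.21, 95% interval -0.30 to 0.64) in L-GMP. Leaving out WT L-GMP array 1, 2 or 3 gave an L-GMP difference of 0.45, 0.03 or 0.02. Over both populations it was 0.31 with that array and 0.45 without it (limma adjusted p = 0.663 and 0.148).

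Sik3, whose product acts on HDAC4 (probe set 17516871), ranged from 7.34 to 8.11 log2 units, and both extremes were KO L-GMP arrays. Its group means were 7.73 ± 0.13 (SD, n = 3) in WT whole leukemia, 7.68 ± 0.18 in KO whole leukemia, 7.52 ± 0.09 in WT L-GMP and 7.70 ± 0.39 in KO L-GMP. Its genotype difference was 0.18 (SE 0.18, 95% interval -0.21 to 0.57) in L-GMP, which was -0.02 without KO L-GMP array 3 and 0.36 without array 2, and -0.05 (SE 0.18) in whole leukemia. On KO L-GMP array 3, which held the highest Sik3, the mean of 11 G2/M genes was 6.77, the lowest of the 12 arrays, and that mean spanned 7.98 to 8.59 in WT L-GMP. It was next lowest on KO whole leukemia array 3 (6.89), where Sik3 lay only 0.05 above its mean over the 12 arrays. KO L-GMP array 2, which held the lowest Sik3, had the highest mean of 7 eosinophil, basophil and mast cell markers (7.79). The part of these genes in the Sik3 values was not tested.

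**Figure D3:**
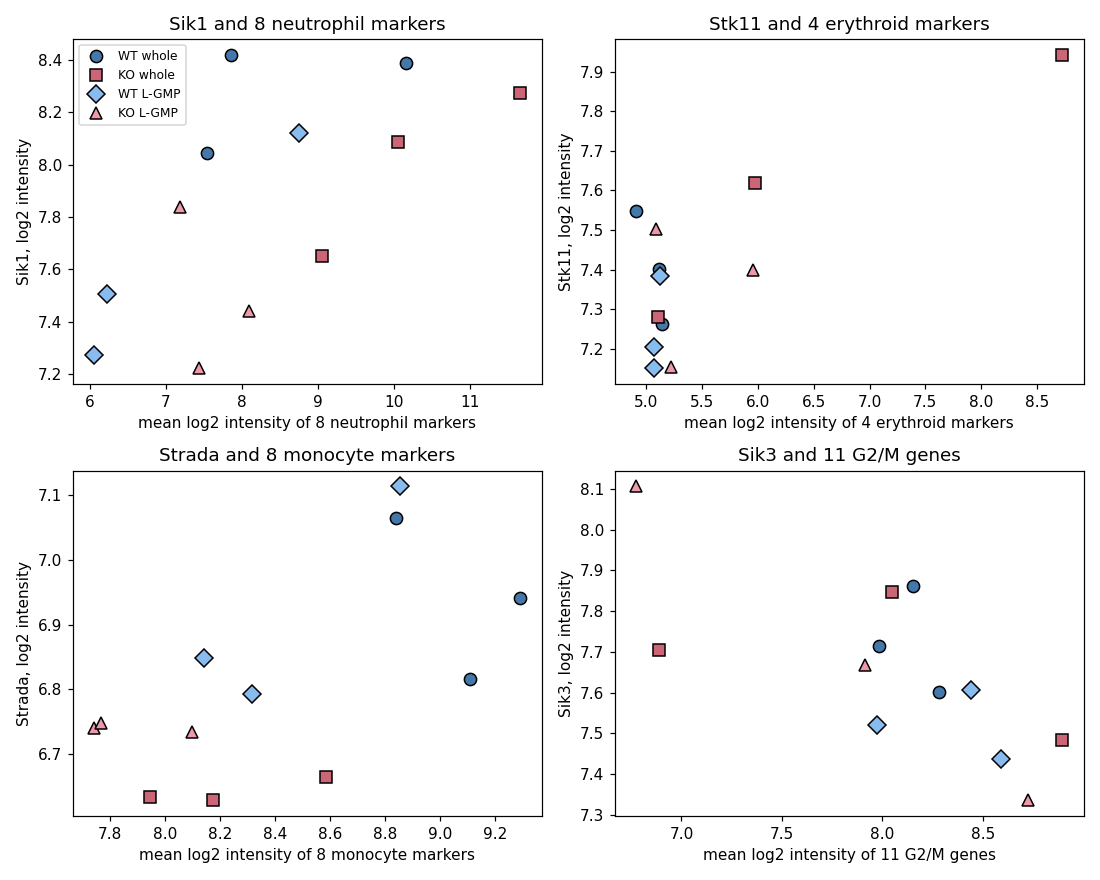
Log2 intensity of Sik1, Stk11, Strada and Sik3 (vertical axes) against the mean log2 intensity of a list of marker or cell cycle genes on the same array (horizontal axes), 1 point per array. The lists were matched to the genes after their values were seen. KO whole leukemia array 2 stands alone in the erythroid panel, at 8.73.

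Nuak1 (probe set 17243604) lay near the filter for dim genes, between 4.94 and 5.33 log2 units, so differences in it may be compressed. Its differences ran from -0.03 to 0.12 over the comparisons of 2 groups. Nuak2 (probe set 17217182) was lower on every KO than on every WT L-GMP array, at 6.62, 6.59 and 6.45 against 7.04, 6.70 and 6.75. In whole leukemia it overlapped, with 6.96, 6.31 and 6.52 in the KO against 6.70, 6.96 and 6.70 in the WT. The genotype difference was -0.28 (SE 0.16, 95% interval -0.64 to 0.09) in L-GMP and -0.19 (SE 0.16) in whole leukemia, the latter -0.05 without KO whole leukemia array 2 and -0.37 without array 1. Averaged it was -0.23 (SE 0.12, limma adjusted p = 0.671).

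Mark2 (probe set 17362289), like Sik2, was higher on the KO than on the WT whole leukemia arrays, at 7.76, 7.63 and 7.82 against 7.20, 7.39 and 7.58. In L-GMP the arrays overlapped, with 7.63, 7.44 and 7.90 in the KO and 7.73, 7.35 and 7.57 in the WT. The difference was 0.35 (SE 0.15, 95% interval 0.02 to 0.67; limma unadjusted p = 0.04, adjusted p = 0.827) in whole leukemia and 0.11 (SE 0.15) in L-GMP. The interaction was -0.24 for Mark2 (SE 0.21) and -0.28 for Sik2 (SE 0.30), both at limma adjusted p = 1.0, so a difference between populations was not shown.

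Counted over the 10 genes, KO and WT arrays did not overlap for 2 in L-GMP (Strada and Nuak2, both lower) and 3 in whole leukemia (Strada lower, Sik2 and Mark2 higher), where 9.48% and 11.2% of all genes did not overlap. Of all genes, 5.82% lay higher and 3.66% lower without overlap in KO L-GMP, and 5.46% higher and 5.73% lower in KO whole leukemia. L-GMP and whole leukemia arrays did not overlap for 0 of 10 in the WT and for Strada alone in the KO, where the shares of all genes were 10.3% (4.89% higher and 5.4% lower in L-GMP) and 10.2% (5.49% higher). The 6 L-GMP arrays separated from the 6 whole leukemia arrays for 0 of 10, against 0.355% of all genes (0.203% lower in L-GMP). Among the 30 pairs of neighbouring group means, 3 for each gene, the gap exceeded the larger SD in 2, both of Strada (WT L-GMP above KO L-GMP, and KO L-GMP above KO whole leukemia). The median genotype difference of the 10 was 0.07 in L-GMP and -0.08 in whole leukemia, beside 0.02 and -0.0016 over all genes.

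The intervals bound what these arrays could have missed. In both genotype comparisons all 10 intervals lay within 1 log2 unit of 0, from 0.626-fold (Sik1) to 1.55-fold (Sik2) in L-GMP and from 0.565-fold (Sik1) to 1.88-fold (Sik2) in whole leukemia. For L-GMP against whole leukemia 9 of 10 lay within that range in each genotype, Sik1 reaching 0.437-fold in the WT and 0.484-fold in the KO. The SE of a member's difference between 2 groups was 0.10 to 0.25, and smaller changes remain possible.

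**Figure D4:**
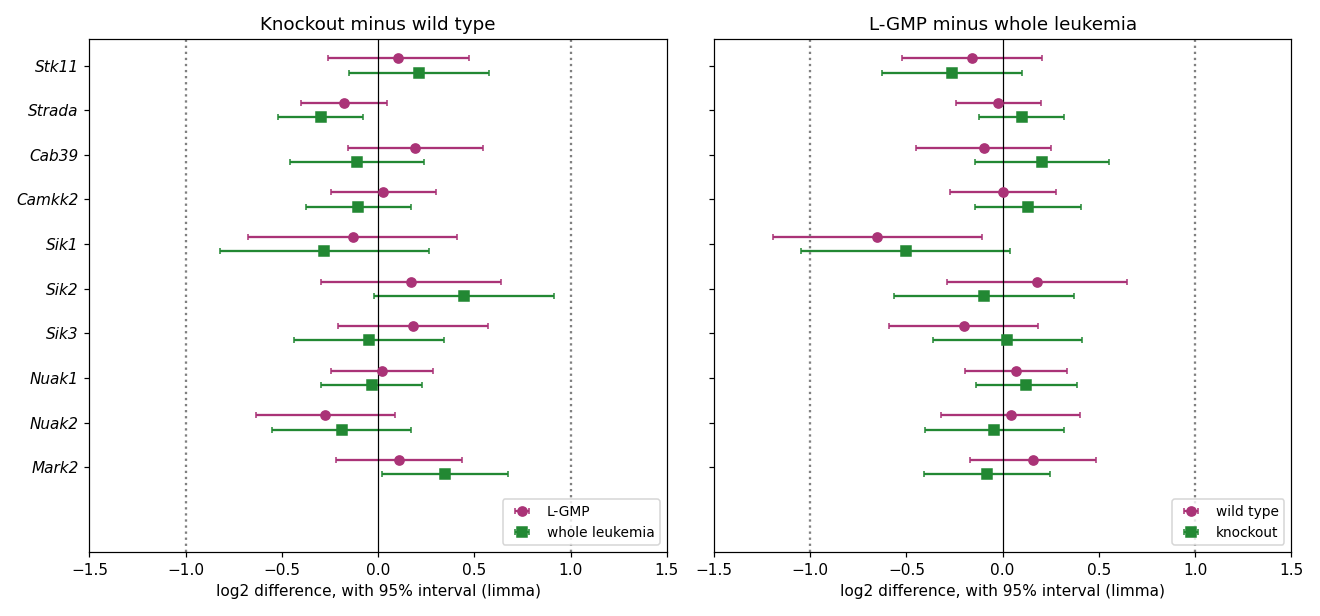
Log2 difference (horizontal axes) with its 95% limma interval for each of the 10 genes, for knockout minus wild type in both populations (left) and for L-GMP minus whole leukemia in both genotypes (right), dotted lines marking a change of 1 log2 unit. In the left panel the intervals that exclude 0 are those of Strada and Mark2 in whole leukemia, and in the right panel that of Sik1 in the WT.

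Neighbours in the pathway gave 0 calls by limma in any comparison, in each of the lists below. Of 5 other LKB1 partners and upstream kinases tested (of 7 listed), 3 were above and 2 below the WT in KO L-GMP, from -0.12 to 0.28, among them Cab39l, a paralog of Cab39 (0.28, SE 0.25). In whole leukemia Stradb, the paralog of Strada, had a difference of 0.37 (SE 0.25, limma adjusted p = 0.858). Of 5 other AMPK-related kinases (of 8 listed), 4 had lower values in KO whole leukemia and 3 in KO L-GMP. Melk, a kinase of proliferating cells, had the largest of these, -0.60 in L-GMP (SE 0.29, limma adjusted p = 1.0). It measured 5.53 on KO L-GMP array 3 and 5.48 on KO whole leukemia array 3, where the mean of the G2/M genes was 6.77 and 6.89. The part of cell cycle genes in the Melk values was not tested.

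Of the 7 SIK substrate genes, 5 had higher values in KO L-GMP (median difference 0.16) and 3 in KO whole leukemia (median -0.02), and 0 were called. Hdac4, the class IIa deacetylase held in check by SIK3, had differences of 0.64 (SE 0.22) in L-GMP and 0.48 (SE 0.22) in whole leukemia. Averaged it was 0.56 (SE 0.16, limma unadjusted p = 0.0049, adjusted p = 0.425), with KO L-GMP arrays at 7.60, 7.16 and 7.57 and WT L-GMP arrays at 6.576, 6.844 and 6.996. Hdac9 had a difference of -0.52 (SE 0.21) in whole leukemia.

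Of 11 CREB and CRTC target genes tested (of 12), 10 had higher values in KO L-GMP (median 0.12) and 6 in KO whole leukemia (median 0.03), and the shares of all genes above 0 were 54.8% and 49.6%. Their lowest adjusted p for genotype by limma was 0.767. Crem, Nr4a3, Bdnf and Nr4a2, all among the 10 with higher values in KO L-GMP, lay near the filter for dim genes. The means of these genes over the 12 arrays were 4.79, 4.83, 4.88 and 4.99 log2 units, so differences in them may be compressed. Immediate early genes, which respond to sorting and handling and share 4 genes with that list, were above the WT in 13 of 14 and 12 of 14. Their mean level lay lowest on WT L-GMP array 2 (6.46) and WT whole leukemia array 2 (6.61), against 7.31 to 8.09 on the other arrays, and the part of these arrays in the result was not tested. In L-GMP against whole leukemia, Nr4a1, a CREB target, had a difference of -0.42 averaged over genotypes (SE 0.19, limma adjusted p = 0.661), while 5 of the 11 targets lay above and 6 below 0, with a median of -0.0099.

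Of the 7 tested genes for protein kinase A subunits and CREB (of 8 listed), 3 had higher and 4 lower values in the KO in each population. Prkar2b, a regulatory subunit, had a genotype difference of 0.47 averaged over populations (SE 0.13, limma adjusted p = 0.43) and Prkar2a one of -0.37 (SE 0.13, adjusted p = 0.544). Of 12 tested genes for MARK and NUAK substrates and their phosphoserine-binding adaptors (of 13), 4 had higher values in KO L-GMP and 6 in KO whole leukemia. Ppp1cb, a catalytic subunit of myosin phosphatase, had a difference of 0.42 in whole leukemia (SE 0.15, limma adjusted p = 0.827), and Map4, a microtubule-associated protein gene, one of -0.26 averaged over populations (SE 0.10, limma adjusted p = 0.567). The AMPK subunit list had 0 of 7 called, with Prkaa1 at -1.06 averaged over populations (SE 0.17, limma adjusted p = 0.102).

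Marker lists of other cells are given beside the Strada, Stk11, Sik2 and Mark2 values, and 0 of their genes passed limma for genotype. Of 8 monocyte markers, 7 had lower values in the KO averaged over populations (median -0.50, 0 called), and their mean level spanned 8.84 to 9.29 in WT whole leukemia, 7.94 to 8.58 in KO whole leukemia, 8.14 to 8.85 in WT L-GMP and 7.74 to 8.10 in KO L-GMP. All 4 measured erythroid markers (of 8 listed) had higher values in KO whole leukemia, with a mean level of 5.10 to 8.73 there, 4.91 to 5.14 in WT whole leukemia, 5.07 to 5.12 in WT L-GMP and 5.08 to 5.96 in KO L-GMP. The highest erythroid level and the highest Stk11 value were on the same array, KO whole leukemia array 2. That array also held the highest mean of the neutrophil markers (11.67), the G2/M genes (8.89) and the B cell markers (5.75). All 8 neutrophil markers had higher values in KO than in WT whole leukemia (median difference 1.63, 0 called), the comparison in which Strada, Sik2 and Mark2 did not overlap. All 11 G2/M genes had lower values in the KO averaged over populations (median -0.37, 0 called). Their mean level was low on the KO arrays numbered 3 alone, at 6.89 in whole leukemia and 6.77 in L-GMP. On the other KO arrays it spanned 7.91 to 8.89, against 7.98 to 8.59 on the WT arrays. The mean of the 4 gate genes spanned 7.31 to 7.57 in KO and 8.06 to 8.18 in WT whole leukemia, and 8.46 to 8.81 in KO and 8.25 to 8.67 in WT L-GMP. This mean joins genes that differed in sign. In KO whole leukemia 1 of the 4, Kit, lay above the WT (0.50), and 3 lay below, Cd34 the most (-2.32). The mean of the 5 T and NK cell markers measured (of 6 listed) lay higher on every KO than on every WT array. It spanned 5.41 to 5.72 in KO and 5.15 to 5.21 in WT whole leukemia, and 5.29 to 5.95 in KO and 4.96 to 5.12 in WT L-GMP. Of the 4 that were tested, 2 lay above and 2 below 0 averaged over populations (median 0.04), with Nkg7, a cytotoxic granule gene, at 2.07 (SE 0.61, limma adjusted p = 0.45). The part of these cells, of the gate genes and of cell cycle genes in the values of Strada, Stk11, Sik2 and Mark2 was not tested.

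The genes whose pattern over the 12 arrays was most like that of a member were named for the 3 members with the widest range of group means. For Sik1 they were Gpr141, Lgals3 and Degs1 (Pearson r = 0.93, 0.92 and 0.92). For Sik2 they were Notch4, Lmod2 and Cntn2 (r = 0.92, 0.92 and 0.91), of which Lmod2, at group means of 4.83 to 4.93, lay close to the dim limit. For Stk11 they were Klhdc4, Mcam and Megf9 (r = 0.95, 0.94 and 0.93). These are the highest of 17749 genes and are given as a description. The 12 arrays share group differences and include KO whole leukemia array 2 and KO L-GMP array 2, which stood apart.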

How the data were processed

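The deposited table holds linear intensity values of 33794 probe sets on 12 arrays, between 17.96 and 9108.2, with array medians of 36.9 to 39.3. Per the labels' protocols, NuGEN kits were used to amplify the RNA and label it with biotin. No source used here gives the array software, background correction or normalization. The log2 of each value was analysed without rescaling or a pseudocount. Probe sets with exactly 1 symbol in the platform annotation (23521) were used, the one of highest mean per gene (1814 had several symbols and 8459 were not listed). Tests excluded genes whose mean fell under 4.72, the 25% point of all probe set means. Entrez identifiers of all 10 members matched RefSeq (GRCm38.p6). Group means were fitted over all 12 arrays with limma 3.58.1 (lmFit, eBayes; R 4.3.3), with 8 residual and 2.36 prior degrees of freedom, and differences are of mean log2 intensity. The procedure was tested on simulated data.

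The members, lists and alternatives were chosen with earlier results of these data known. Named genes were the 10 members, per list up to 3 genes of lowest p in a comparison, the genes most like 3 members, and the AMPK catalytic subunits; Stradb, Melk on single arrays and the marker panels were picked from these after their values were seen. Deviations from group means correlated between WT whole leukemia and WT L-GMP arrays of equal number at 0.36, 0.62 and 0.30, which pairs them by the rule used, and between the KO populations at 0.13, 0.09 and 0.43, which does not. The main fit used no replicate block, so the SE of genotype differences averaged over both populations may be too small.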

Additional observations from a re-analysis of the deposited data

How the results depend on the processing

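The 70 member differences were recomputed under 24 alternative settings, giving 1613 values, of which 0 were called by limma (lowest adjusted p = 0.143, for Sik1 in L-GMP against whole leukemia over both genotypes without KO whole leukemia array 1). Many of these values could not move. The filter, variance, probe set and replicate block settings, and fits of only the groups compared, leave a member's difference as it was. So does leaving out an array of a group not compared. The count of turned signs is therefore no measure of stability. The sign turned in 81 of the 1613 values, spread over 33 differences, and in 0 of those for the 5 differences whose 95% interval excluded 0. Those 5 were Strada and Mark2 for genotype in whole leukemia, Sik1 in the WT population comparison, Strada for genotype over both populations and Sik1 for population over both genotypes. The count of members called was 0 throughout. Counts over all genes moved more. For genotype in L-GMP the 1 gene called became 2 with the mean of all probe sets and with a trended and robust variance, 4 with array weights, and 0 with no filter, with only the groups compared, and with a replicate block by number as a fixed term, and ranged from 0 to 2 when 1 array was left out. For genotype in whole leukemia 0 became 1 without both KO arrays numbered 2, and ranged from 0 to 1 when 1 array was left out. For the KO population comparison 0 became 1 with the lowest 50% left out, 2 with log2(value + 16), 1 with the trended and robust variance and 2 with a random replicate block by genotype and number (correlation 0.15), and ranged from 0 to 40 when 1 array was left out, 40 without KO whole leukemia array 1. For genotype over both populations 6 became 3 with the mean of all probe sets and with log2(value + 16), 51 with array weights and 2 with that random replicate block, and ranged from 1 to 15. For population over both genotypes 0 became 1 with the trended and robust variance, and ranged from 0 to 9. The replicate block changed no call of a member. With genotype and number as a fixed term, Sik1 in the WT population comparison had an SE of 0.20 (limma adjusted p = 0.998). Its difference of -0.65 could not change, because the arrays are balanced over this term. Groups of 3 arrays limit the precision. Nuak1, Prkaa2 and the CREB and CRTC targets Crem, Nr4a3, Bdnf and Nr4a2 lay near the dim limit. Differences may be compressed there, which was not tested. The causes of these changes were not tested.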
